A study of Mus musculus with 56 samples.

Results

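The genes of the cytosolic ribosomal proteins were followed in gastrocnemius muscle of 56 mice. They were chosen by symbol, as the Rpl and Rps genes with a numbered name, paralogues ending in a, l or x included, together with Rplp0, Rplp1, Rplp2 and Rpsa, and pseudogene symbols were left out. This gave 80 of the 15539 listed genes, 32 of the small subunit and 48 of the large subunit, and 79 of them passed the filter on low counts that left 14321 genes for testing. The member that did not pass was Rpl6l, at 0 to 1.08 CPM. CPM here are counts scaled to a common library size with TMM factors. All mice were C57Bl/6 on a chow 5015 diet, and the 8 groups of 7 mice combined sex, genotype and wheel. The controls were littermates with both Elavl1 alleles floxed (HuR fl/fl). The mice labelled HuR Skeletal Muscle Knockout, called HuRm-/- below, carried Cre under the Mlc1f promoter, so that deletion of Elavl1 was directed to muscle fibres and not to the other cells of the tissue. Each genotype had males and females with a locked wheel or with a running wheel, which was offered from 10 to 20 weeks of age. The labels also give 5 months as the age at which the mice were put on wheels for 10 weeks, which cannot be joined with the other statement.

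Ribosomes read messenger RNA into protein. The small (40S) subunit holds the decoding site, the large (60S) subunit joins the amino acids, and about equal amounts of each protein are needed to build the particle. Mammalian ribosomal protein messages mostly start with a run of pyrimidines, the 5′ terminal oligopyrimidine tract, through which their translation follows mTOR signalling. Striated muscle has its own form of 1 protein of the large subunit: Rpl3l is made in skeletal muscle and heart, whereas Rpl3 is made in all tissues, and the protein lies near the peptidyl transferase centre.

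Total counts ran from 6639782 to 21633091 per mouse, and in all 168 pairs of mice within a group the counts differed by more than counting error alone gives (chi-square divided by its degrees of freedom, 3.55 to 49.8), so each mouse was 1 replicate. Elavl1 (ENSMUSG00000040028, chromosome 8, 4285382 to 4325413 on the minus strand of GRCm38) encodes HuR and checks the genotype labels. In none of the 4 comparisons was it called lower in the mice labelled HuRm-/-. With locked wheels its median was 54.0 CPM in male controls and 50.5 in labelled males, and 44.5 and 47.9 in the corresponding females. With running wheels labelled males were above male controls by 0.44 ± 0.11 on the log2 scale (SE, 7 mice a group, adjusted p = 0.0242), and the other 3 comparisons did not pass. The labels describe a kit that reads the 3′ ends of transcripts, and where the deleted part lies is not given in the sources used here, so reads outside that part would check nothing. The genotype is therefore given as labelled throughout.

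RefSeq transcript starts on GRCm38.p6 were found for 58 of the 80 members. A pyrimidine run was searched for in the gene's own strand only, as a C followed by at least 6 bases that are each C or T, within 15 bases before and 15 bases from the start. It was present at 30 of the 58 members (51.7%), against 16.4% of all 27025 genes with a start in the table and 15.9% of 69 genes for mitochondrial ribosomal proteins. The stricter form, a C at the start itself with at least 4 pyrimidines after it, was present at 22.4% of the members and 3.01% of all genes. The starts below are among those that the table gives for some of the members described further on. The run is in capitals where there was a match. The start is the base after the first 15, and each line is 30 bases long.
Rpl35, chr2:39005117-39005146, minus strand: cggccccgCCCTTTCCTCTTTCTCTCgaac
Rpl39, chrX:37085208-37085237, minus strand: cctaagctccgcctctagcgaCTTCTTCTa
Rpl34, chr3:130730384-130730413, minus strand: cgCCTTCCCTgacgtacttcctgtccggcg
Rpl34, chr3:130730323-130730352, minus strand: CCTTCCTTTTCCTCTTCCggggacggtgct
Rps12, chr10:23787195-23787224, minus strand: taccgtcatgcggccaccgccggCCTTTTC
Rps27l, chr9:66946071-66946100, plus strand: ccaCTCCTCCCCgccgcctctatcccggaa
Rps27l, chr9:66946398-66946427, plus strand: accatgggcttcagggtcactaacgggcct
Rplp2, chr7:141447636-141447665, plus strand: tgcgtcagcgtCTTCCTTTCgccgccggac
Rplp0, chr5:115559452-115559481, plus strand: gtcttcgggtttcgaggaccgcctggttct
Rpsa, chr9:120127751-120127780, plus strand: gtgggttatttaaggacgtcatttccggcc
Rpl3l, chr17:24727811-24727840, plus strand: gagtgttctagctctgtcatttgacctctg
Rpl3l, chr17:24732670-24732699, plus strand: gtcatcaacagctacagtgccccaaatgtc
Rpl3l, the muscle paralogue, Rplp0 of the P stalk and Rpsa had no match in this window, nor had 1 of the starts of Rps27l; no match says only that these letters are not in it.

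The members took between 1.12% and 1.93% of all counts in a mouse. In males with locked wheels the share was 1.12% at the lowest, 1.21% at the median and 1.27% at the highest in controls, and 1.16%, 1.20% and 1.37% in labelled mice. In females with locked wheels it was 1.44%, 1.60% and 1.79% in controls, and 1.49%, 1.67% and 1.93% in labelled mice. Every female with a locked wheel was thus above every male with a locked wheel. With running wheels the sexes overlapped: the range was 1.14% to 1.66% in male controls, 1.18% to 1.43% in labelled males, 1.26% to 1.46% in female controls and 1.33% to 1.49% in labelled females. In bulk muscle, more RNA per cell and more cells of a kind rich in these messages cannot be told apart.

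**Figure D1:**
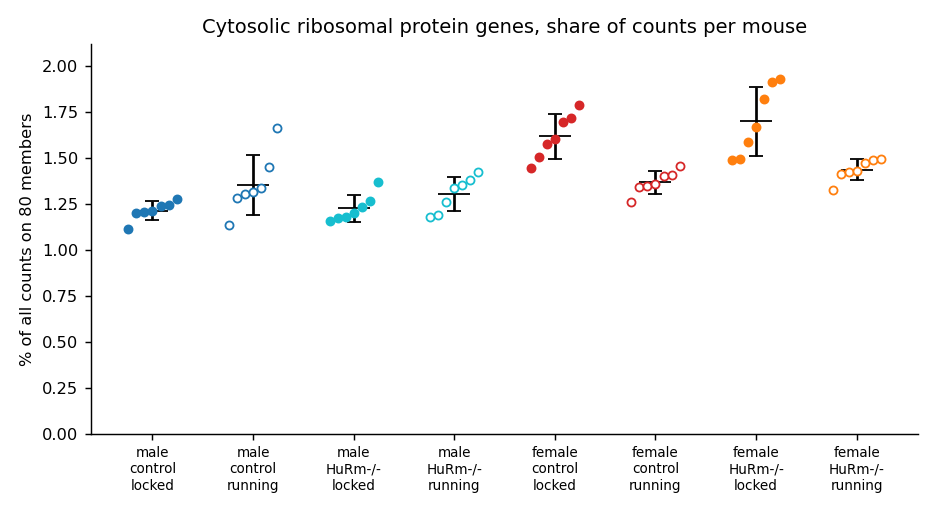
Percent of all counts that fell on the 80 ribosomal protein genes (y axis) in each of the 56 mice, by group (x axis); filled points are mice with locked wheels, open points mice with running wheels, the bar is the mean and the whiskers are 1 SD. The locked females of both genotypes, from 1.44% to 1.93%, lie above all locked males, from 1.12% to 1.37%, and the running groups overlap.

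The comparison of females with males asks how sex is reflected in muscle messages. With locked wheels, 58 of the 79 tested members were higher in control females than in control males (73.4%) and none was lower, against 10.3% of all 14321 genes higher and 11.2% lower. The median member was 1.26-fold higher (0.33 on the log2 scale; median of all genes 0.01). In the mice labelled HuRm-/-, 61 were higher and none lower, against 9.08% higher and 10.2% lower among all genes, and the median member was 1.30-fold higher. Of these, 54 members were higher in both genotypes, which is 93.1% of the first list and 88.5% of the second. Both subunits took part: 27 of 32 members of the small subunit and 31 of 47 of the large subunit were higher in control females, with medians of 0.35 and 0.31 on the log2 scale.

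Rpl39, a small protein of the tunnel through which the new chain leaves the ribosome, had the largest rise in the controls. Its level was 67.2 CPM at the lowest, 76.4 at the median and 90.1 at the highest in locked male controls, and 91.7, 123 and 135 in locked female controls. All 7 females were above all 7 males, and the difference was 0.64 on the log2 scale (adjusted p = 3.07e-06). Rpl35, which lies at the mouth of the same tunnel, was at 101, 131 and 150 CPM in the males and at 167, 192 and 207 in the females, again without overlap (0.60, adjusted p = 8.3e-05). Rps12, a protein of the small subunit, was higher by 0.53 (adjusted p = 0.000202), and Rpl41, the shortest of the ribosomal proteins, by 0.52 (adjusted p = 4.19e-05), both without overlap between the groups. In all, 30 of the 79 members had no overlap between locked control females and males, and 15 had none in the labelled mice. The share of all genes without overlap is not given here, so these counts have no background to be read against. In the labelled mice the largest rises were those of Rpl3 (0.69, adjusted p = 6.94e-07), Rpl35 (0.69, adjusted p = 1.4e-05), Rpl26 (0.66, adjusted p = 4.28e-08), Rpl39 (0.65, adjusted p = 2.28e-06) and Rps27a (0.60, adjusted p = 0.00355), which is made as a fusion with ubiquitin. Rpl26 and Rpl3 are proteins of the large subunit, and neither overlapped between the sexes.

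With running wheels the sexes differed at far fewer members. In controls 4 members were higher in females and 6 lower, against 3.09% and 4.57% of all genes, and the median was -0.04. In labelled mice 7 were higher and none lower, against 2.3% and 3.26% of all genes. Under library totals the split in controls was 6 higher and 2 lower, and without male controls 10 and 13, the running males with the largest share of counts on members, it was 3 higher and none lower. Among the 4 higher in running control females were the 3 proteins of the P stalk, the arm of the large subunit that recruits elongation factors, and the other was Rpl35. Rplp0, the base of the stalk, was at 144, 149 and 179 CPM in running male controls and at 186, 215 and 227 in running female controls, without overlap (0.43 ± 0.07, adjusted p = 3.51e-05). Rplp2 differed by 0.23 (adjusted p = 0.0161) and Rplp1 by 0.19 (adjusted p = 0.0155). In the running labelled mice Rplp0 and Rplp2 were also higher in females (0.32, adjusted p = 0.0032 and 0.27, adjusted p = 0.00592), and Rplp1 was at 0.13 (adjusted p = 0.17). Rpsa, the small-subunit protein also known as the laminin receptor, was higher in females in 3 of the 4 strata and was at 0.11 in the running controls (adjusted p = 0.40). The 6 lower members were Rpl34, Rpl21, Rps19, Rps15a, Rps27 and Rpl11, between -0.41 and -0.24 on the log2 scale. Averaged over genotype and wheel, 60 members were higher in females and 1, Rpl3l, was lower, against 15.8% and 17.1% of all genes.

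**Figure D2:**
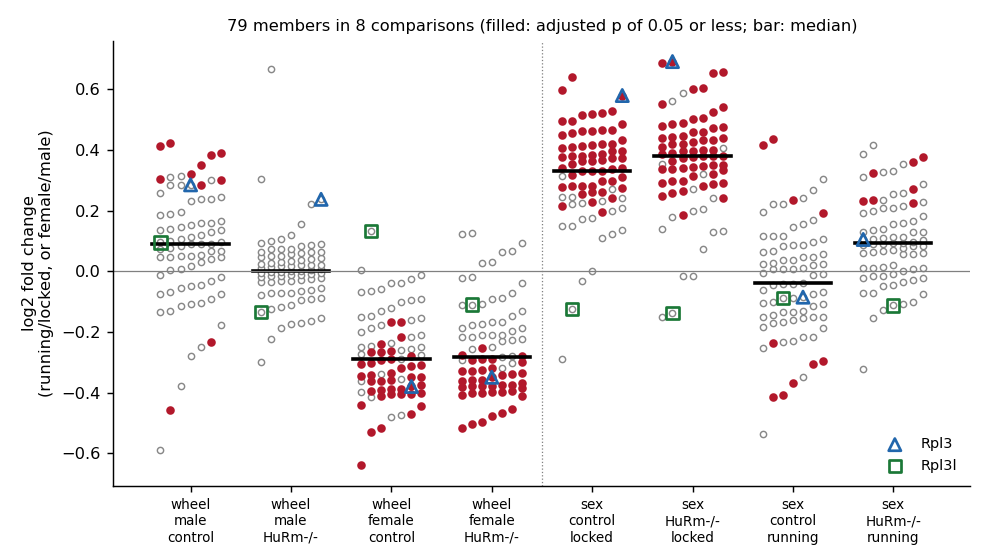
Log2 fold changes (y axis) of the 79 tested members in 8 comparisons (x axis), running against locked wheel on the left of the dotted line and female against male on the right; filled points had an adjusted p of 0.05 or less in limma, bars are medians, and Rpl3 and Rpl3l are outlined. The medians were -0.29 and -0.28 with the wheel in females, 0.09 and 0.00 in males, and 0.33 and 0.38 between the sexes with locked wheels.

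The running wheel asks what voluntary exercise changed. In control females 40 of the 79 members were lower with the running wheel (50.6%) and none was higher, against 4.23% of all genes lower and 4.5% higher, and the median member was 0.82 times its locked level (-0.29 on the log2 scale; all genes 0.01). In labelled females 39 were lower and none higher, against 1.8% lower and 2.05% higher, with a median of -0.28. The lists had 27 members in common, which is 67.5% of the first and 69.2% of the second. These wheel comparisons share no animals, but each shares its locked females with the comparison of the sexes above.

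In control females the largest fall was that of Rpl35, from 167, 192 and 207 CPM with locked wheels to 102, 122 and 134 with running wheels (-0.64, adjusted p = 0.000332), without overlap. Rpl39 fell by 0.53 on the log2 scale (adjusted p = 0.000632), Rpl34 by 0.52 (adjusted p = 0.000937) and Rps27 by 0.47 (adjusted p = 0.00155). Rps14, which takes part in forming the decoding region of the small subunit, fell by 0.44 (adjusted p = 0.000332), as did Rps27l, a paralogue of Rps27 that p53 is known to induce (adjusted p = 0.000395). Rps27, Rps14 and Rps27l did not overlap between running and locked mice, and nor did 23 of the 79 members in all. For this count too the share of all genes is not given.

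In labelled females Rpl36a, a protein of the exit site for transfer RNA, fell most, from 158, 184 and 204 CPM to 111, 133 and 143 (-0.52, adjusted p = 0.000121), without overlap. Rpl13 fell by 0.50 (adjusted p = 0.0016) and Rpl26 also by 0.50 (adjusted p = 9.23e-05). In the small subunit Rps24 fell by 0.48 (adjusted p = 0.00103), and Rps15a, at 252, 262 and 326 CPM with locked wheels and 181, 191 and 229 with running wheels, by 0.47 (adjusted p = 0.000611). Rpl26 and Rps15a were separated without overlap, as were 18 of the 79 members, again without the share of all genes to set beside it. Rplp1, with the most counts of any member, fell by 0.33 in labelled females (adjusted p = 6.86e-05) and by 0.17 in control females (adjusted p = 0.0391).

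In males the wheel went with smaller differences. In male controls 9 members were higher with the running wheel and 2 lower, against 1.49% and 1.75% of all genes, and the median was 0.09 (all genes 0.02). The largest rises were those of Rps12 (0.42, adjusted p = 0.0168), Rps15a (0.41, adjusted p = 0.00498), Rps25 (0.39, adjusted p = 0.00543), Rpl21 (0.38, adjusted p = 0.0253) and Rpl34 (0.35, adjusted p = 0.039). Of the 9, 7 were among those that fell with the wheel in control females: Rpl11, Rpl21, Rpl26, Rpl31, Rpl34, Rps15a and Rps19. Rpl35 and Rpl6 were the 2 lower members, at -0.46 (adjusted p = 0.0178) and -0.23 (adjusted p = 0.0294). The count of 11 rested on running male controls 10 and 13, whose members took 1.45% and 1.66% of counts: without both it was 0, and without mouse 10 alone it was 2. A further list bears on how a library was made. It held 9 genes whose RNA has no poly(A) tail or whose locus holds sequence like ribosomal RNA. Of the 9, 8 were among the listed genes, with Rmrp and Rpph1 at 0 in some mice. Their summed level was 100415 to 119415 CPM in locked and 61383 to 106464 CPM in running male controls. In running female controls it was 111394 to 132466 CPM. A sum follows the genes with the most counts, so it does not show that the list moved as a whole. Of these 8 genes 1 was called lower with the wheel in male controls and 2 higher in running control females than in running control males. Around the group means the correlation of this list with the member mean was -0.25 over 56 mice, and its part in these results was not tested. In labelled males limma called no member in either direction, against 0.0209% of all genes higher and 0.0209% lower, and edgeR and DESeq2 called none. An unadjusted p under 0.05 was found for 5 members, a count given without the share of all genes. Averaged over the 4 lines 28 members were lower and none higher, against 2.54% and 3.42% of all genes, and under library totals 8 were lower.

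The difference between the sexes in the response to the wheel was tested directly. In controls the response was lower in females than in males for 40 of the 79 members and higher for none, against 4.41% and 4.33% of all genes, with a median difference of -0.36 on the log2 scale. In labelled mice it was lower for 20 and higher for none, against 0.663% and 0.684%, with a median of -0.29. This count was 13 without locked labelled female 14, 30 without locked labelled female 13, and 9 in a fit of only the groups compared. Rpl34 had the largest difference in controls, -0.87 ± 0.14 (SE, adjusted p = 9.53e-05). Its level was 179, 198 and 225 CPM in locked and 200, 248 and 308 in running male controls, and 212, 273 and 339 in locked and 165, 188 and 238 in running female controls. The running mice were thus mostly the higher ones among males and the lower ones among females. Rpl21 followed at -0.77 ± 0.15 (adjusted p = 0.000572), then Rps7 at -0.72, Rps15a at -0.70 and Rpl36a at -0.69. In labelled mice Rpl36a had the largest, -0.60 ± 0.12 (adjusted p = 0.0082), followed by Rps15a, Rpl3, Rpl26 and Rpl13. In both genotypes 13 members passed, among them Rpl3, Rpl7, Rpl13, Rpl22, Rpl23a, Rpl26, Rpl31, Rpl36a, Rps15a, Rps25 and Rps26.

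**Figure D3:**
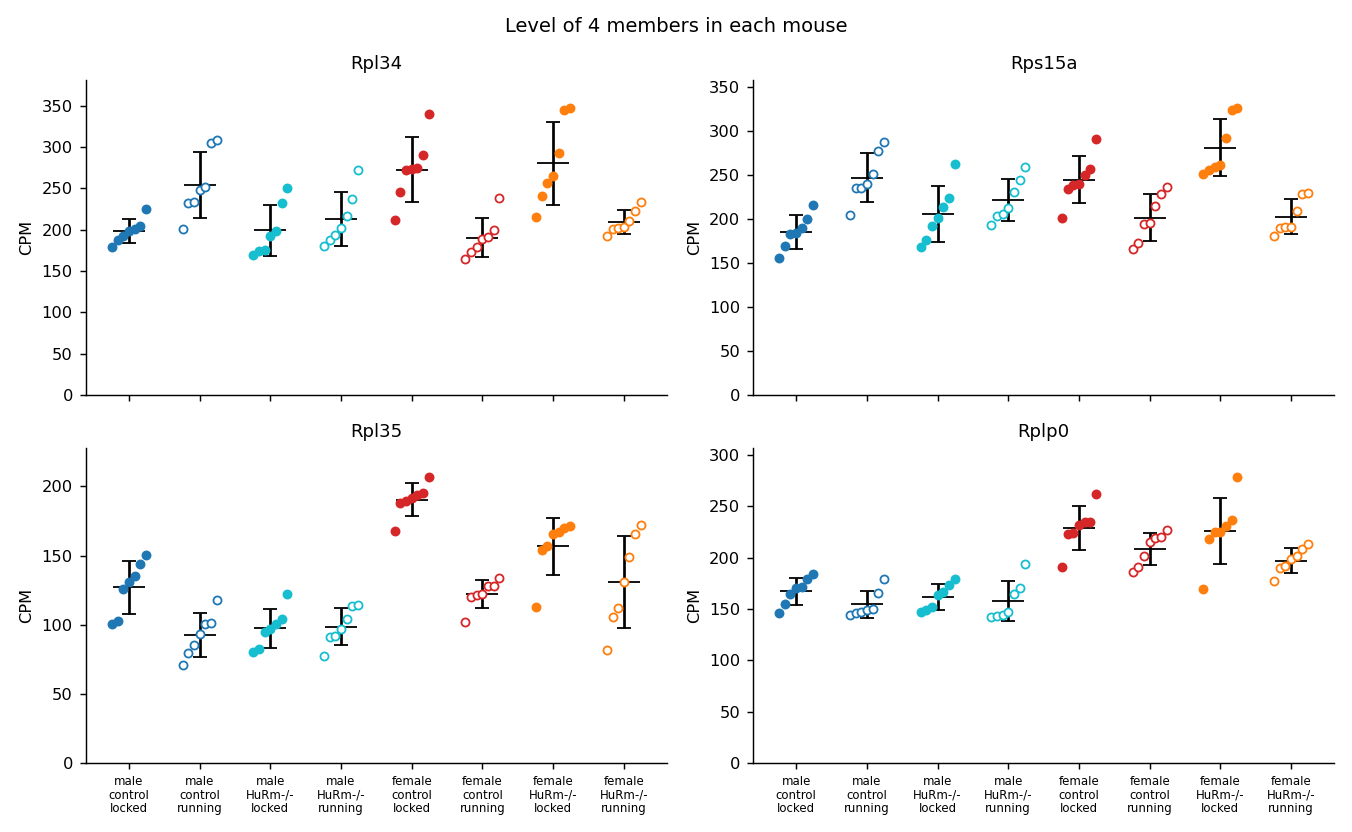
Level in CPM (y axis, from 0) of Rpl34, Rps15a, Rpl35 and Rplp0 in each mouse, by group (x axis); filled points are locked wheels, open points running wheels, the bar is the mean and the whiskers are 1 SD. Rpl34 and Rps15a moved up with the wheel in male controls and down in females, Rpl35 was higher in locked female controls (167 to 207 CPM) than in any other group but the labelled females, and Rplp0 was higher in every running control female (186 to 227 CPM) than in every running control male (144 to 179).

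The comparison of labelled with control mice asks what the genotype changed, and few members passed it. With locked wheels no member was called in males, against 0.321% of all genes higher and 0.831% lower (8 members at an unadjusted p under 0.05; 0 by edgeR and 2 by DESeq2). In locked females 1 was higher and none lower, against 0.126% and 0.258%: Rpl14, a protein of the large subunit, at 161, 186 and 192 CPM in controls and 186, 228 and 252 in labelled mice (0.28, adjusted p = 0.0183). The groups overlapped, and in a fit of only these 14 mice it did not pass. With running wheels 9 members were lower in labelled males and none higher, against 1.87% and 0.754% of all genes, among them Rpl21 (-0.47, adjusted p = 0.00838), Rpl36 (-0.39, adjusted p = 0.0172), Rpl37a (-0.35, adjusted p = 0.0244) and Rpl13a (-0.33, adjusted p = 0.0222). All 9 belong to the large subunit. Without male controls 10 and 13 the count was 0, and under library totals it was 1. In running females none was called by limma, edgeR or DESeq2, against 0% and 0% of all genes, and 2 members had an unadjusted p under 0.05. For the counts at an unadjusted p the share of all genes is not given.

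Averaged over sex and wheel 11 members were lower in labelled mice and none higher, against 7.41% and 4.43% of all genes, and the median was -0.05 on the log2 scale. Rpl37a had the largest fall, by 0.23 on the log2 scale (adjusted p = 0.000365). The direction depended on the scaling: with library totals 7 members were higher and 1 was lower, and with upper-quartile factors 2 were higher and 9 lower. No member passed the test of whether the response to the wheel differed between genotypes, in males (against 0.0209% of all genes higher and 0.014% lower) or in females (0% and 0%), or whether the difference between the sexes did, with locked wheels (0% and 0%) or running wheels (0% and 0.014%). At an unadjusted p under 0.05 there were 12, 15, 2 and 15 members. The share of all genes at that cut is not given here, so these counts have no background to be read against. In these tests edgeR called none, and DESeq2 called 2 in the test of the wheel in females.

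Rpl3l (ENSMUSG00000002500, chromosome 17, 24727820 to 24736143, plus strand) and Rpl3 (ENSMUSG00000060036, chromosome 15, 80077791 to 80091868, minus strand) went apart in these comparisons. Rpl3 was at 30.02, 35.7 and 40.9 CPM in locked male controls and at 46.8, 54.1 and 60.1 in locked female controls, without overlap (0.58 ± 0.10, adjusted p = 2.57e-05). With the running wheel it was at 36.6, 42.2 and 46.5 in female controls, below every locked female control (-0.38 ± 0.10, adjusted p = 0.0141). In labelled females it went from 49.6, 61.1 and 69.3 CPM to 36.1, 47.6 and 59.2 (-0.35, adjusted p = 0.0263). Its response to the wheel was lower in females than in males in controls (-0.66 ± 0.15, adjusted p = 0.0022) and in labelled mice (-0.59 ± 0.14, adjusted p = 0.0205).

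Rpl3l varied little. It was at 258, 285 and 322 CPM in locked male controls, 240, 258 and 280 in locked female controls and 262, 291 and 305 in running female controls. Of its 15 comparisons and 6 tests of differences, whose values lay between -0.24 and 0.14 on the log2 scale, 1 passed. This was the comparison of the sexes averaged over genotype and wheel, with Rpl3l lower in females (-0.12 ± 0.03, adjusted p = 0.000606), the single member that was.

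The ratio of Rpl3l to Rpl3 counts in a mouse does not depend on the scaling between libraries. It was 6.35 at the lowest, 7.96 at the median and 9.72 at the highest in locked male controls, and 4.17, 5.00 and 5.87 in locked female controls, so the groups did not overlap. The mean log2 ratio was lower in females by 0.71 (exact permutation test, two-sided, p = 0.000582751, the smallest that 7 against 7 can give; adjusted over 15 comparisons 0.00219). In the locked labelled mice the ratio was 6.88, 8.05 and 13.2 in males and 4.06, 4.51 and 5.81 in females, also without overlap (-0.83, exact permutation p = 0.000582751, adjusted 0.00219). With the running wheel it rose in female controls to 6.01, 6.86 and 8.33, above every locked female control (1.43-fold, 0.52 on the log2 scale, exact permutation p = 0.000582751, adjusted 0.00219). The running male controls, at 5.69, 6.78 and 9.52, overlapped with these females, whose geometric mean ratio was 0.999 times theirs (exact permutation p = 0.991).

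In labelled females the ratio went from 4.51 to 5.44 at the median with the wheel (0.24, exact permutation p = 0.0653, adjusted 0.14). In labelled males it went from 8.05 to 6.12 (-0.37, exact permutation p = 0.0221, adjusted 0.0554). Running labelled females were below running control females by 0.31 (exact permutation p = 0.0221, adjusted 0.0554). None of these passed after adjustment. Averaged over genotype and wheel, the ratio was lower in females by 0.44 (100000 permutations within strata, p = 1e-05, the smallest they can give; adjusted 0.00015). The principal transcripts are 1375 bases for Rpl3l and 1351 for Rpl3, so that the ratio per length is nearly the same, with group medians from 4.44 in locked labelled females to 7.91 in locked labelled males. If only 3′ ends were read, the length does not enter.

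**Figure D4:**
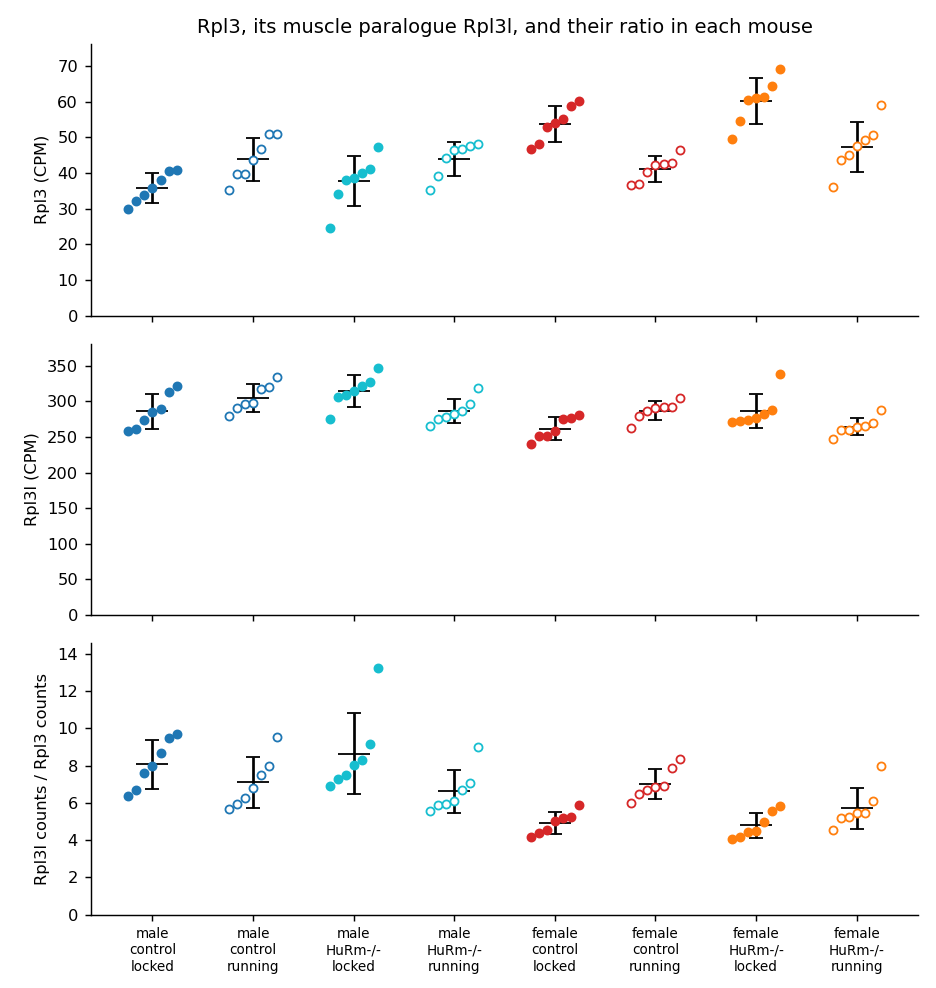
Rpl3 and Rpl3l in CPM and the ratio of Rpl3l to Rpl3 counts (y axes, from 0) in each of the 56 mice, by group (x axis); filled points are locked wheels, open points running wheels, the bar is the mean and the whiskers are 1 SD. The ratio was between 4.06 and 5.87 in all 14 locked females and between 6.35 and 13.2 in all 14 locked males, and running female controls (6.01 to 8.33) lay within the range of running males (5.58 to 9.52).

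Around the means of their groups, most members rose and fell together from mouse to mouse. The correlation of a member with the mean of the others had a median of 0.58 over the 79 members and was above 0.5 for 49 of them; all points share the library and its scaling. Rpl3l had the lowest, -0.17, followed by Rps4l (-0.03), Rpl27a (0.02), Rpl6 (0.18) and Rpl35 (0.19). The members had a median SD around the group means of 0.16 on the log2 scale, against 0.31 over all genes. These were not matched for level: the mean level of a member had a median of 141 CPM, and low counts raise the SD. The SD was among the smallest for Rpl23a (0.09), Rpl3l (0.09), Rplp1 (0.09) and Rps26 (0.10), and largest for Rps6, the substrate of S6 kinase (0.52), Rps4l (0.46), Rpl24 (0.40), Rpl35a (0.34) and Rpl15 (0.34). Rps4l, a paralogue of Rps4x, had a mean of 2.91 CPM and passed no test. Of the tested members Rps4l, Rpl24 and Rps6 had the fewest counts, 2031, 2154 and 4760 over all mice. The SE of Rps4l was 0.28 in the wheel comparison of control females, so that a change of the size of the median member was not detectable for it at this depth.

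Markers of other cell types moved with these differences. The 8 fibroblast markers were all listed and none was at 0 in any mouse. Their summed level was 1204 to 2209 CPM in locked male controls, 2645 to 5260 in locked female controls and 1587 to 2468 in running female controls; in the labelled mice it was 1192 to 2330 in locked males, 2375 to 4082 in locked females and 2148 to 2961 in running females. All 8 were higher in locked females than in locked males in both genotypes. With the wheel 7 of 8 fell in control females and none was called in labelled females. Of the 10 muscle fibre genes, 5 were lower in locked females than in locked males in both genotypes. With the wheel in control females 4 of them rose and none fell, with Ttn at 1.01, Myh2 at 0.63, Myh1 at 0.53 and Mb at 0.31 on the log2 scale, and their summed level went from 78045 to 107052 CPM in locked to 101887 to 120644 in running mice. In labelled females 3 rose and 1 fell, and in male controls 3 rose and 1 fell. Of the 10 adipocyte markers 7 were higher in locked females in both genotypes, of the 10 leukocyte markers listed 9 and 7, and of the 5 erythroid markers 5 and 3. With the wheel in control females 5 adipocyte, 5 leukocyte and 4 erythroid markers fell. The summed adipocyte level overlapped there, at 1138 to 1488 CPM in locked and 1087 to 1494 in running mice. The mean log2 CPM of the 10 adipocyte markers did not overlap, at 4.67 to 5.56 in locked and 4.01 to 4.66 in running mice. None of the adipocyte, leukocyte or erythroid markers was at 0 in any mouse.

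With the mean fibroblast marker level as a covariate, an alternative chosen after the data were seen, the count of members higher in locked females went from 58 to 9 in controls and from 61 to 22 in labelled mice. The count lower with the wheel went from 40 to 6 in control females and from 39 to 38 in labelled females. The count with a different response between the sexes went from 40 to 1 in controls and from 20 to 3 in labelled mice. The medians kept their sign: 0.23 and 0.28 for sex, -0.22 and -0.27 for the wheel in females, and -0.23 in both tests of the difference. Around the group means, the correlation of the member mean with the muscle fibre genes was -0.50, with the erythroid markers 0.30 and with the fibroblast markers 0.29 over 56 mice that share library and scaling. The part of cell composition in the results was not tested beyond these fits. In the wheel comparison of labelled females the count was nearly as large with each of the 4 marker lists as a covariate (38). No fibroblast, leukocyte or erythroid marker was called in that comparison, and Lpl was the adipocyte marker called (0.58, adjusted p = 0.00302). Lep, Retn and Adipoq were at -1.52, -0.59 and -0.63 and did not pass. The mean of the summed fibroblast level was 3110 CPM in locked and 2642 CPM in running labelled females. Why the count changed so little was not tested. The muscle fibre genes were not used as a covariate.

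**Figure D5:**
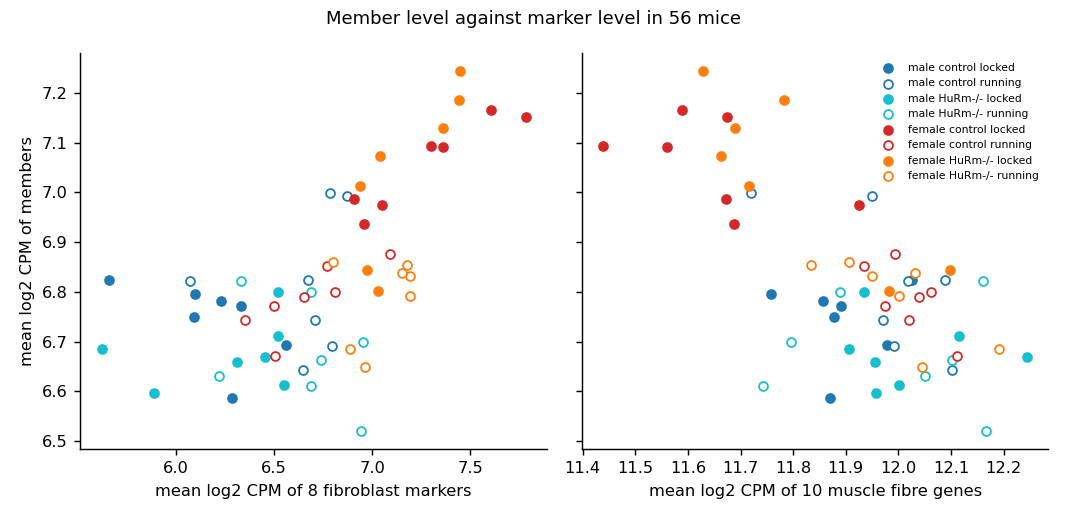
Mean log2 CPM of the tested members (y axis) against the mean log2 CPM of 8 fibroblast markers (left) and of 10 muscle fibre genes (right) on the x axes, 1 point a mouse, coloured by group; filled points are locked wheels and open points running wheels. The mean member level was 7.06 and 7.04 in locked control and labelled females and 6.68 to 6.82 in the male groups, and most locked females lie to the right in the fibroblast panel.

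The principal transcripts of the members are short, with a median of 882 bases against 2938 over the genes tested. The 1107 other tested genes under 1000 bases had a median of 0.10 on the log2 scale between locked control females and males, where 171 were higher and 52 lower. With the wheel 116 of them fell and 32 rose in control females, and 76 fell and 8 rose in labelled females, with a median of -0.12 in each. These medians have the sign of those of the members and are smaller. Genes for mitochondrial ribosomal proteins, a separate ribosome with its own proteins, had medians of 0.01 between locked control females and males and -0.02 with the wheel in control females: of 78 tested, 6 were higher and 1 lower in locked control females, and 2 rose and 6 fell with the wheel in control females.

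Other genes of the cytosolic ribosome and of translation were counted as lists. Of 7 ribosomal protein or ribosome-bound genes that the symbol rule leaves out, 3 were higher in locked control females (Rack1 at 0.22, Rps3a1 at 0.44 and Rpl22l1 at 0.38) and none lower. With the wheel in control females Rps3a1 fell by 0.43 on the log2 scale and Rpl22l1 by 0.55, and in labelled females 4 fell, among them Rack1 by 0.28, Fau by 0.33 and Rpl36al by 0.45. Of 43 translation factors 4 were higher and 10 lower in locked control females: Eef1a1, which delivers transfer RNA to the ribosome, was higher by 0.72 and its exchange factor Eef1b2 by 0.52, and Eif4g1, the scaffold of cap-dependent initiation, was at -0.53. With the wheel in control females 1 factor rose and 3 fell, Eef1a1 among them (-0.37). Of 50 genes of ribosome biogenesis, which make and assemble ribosomal RNA, 1 was higher and 6 lower in locked control females, and 1 rose and 2 fell with the wheel. Of 33 genes that control translation 3 were higher and 12 lower in locked control females, and 4 rose and none fell with the wheel in control females. Among these 4, Larp1 (0.35, adjusted p = 0.0193) binds the pyrimidine tract and Akt1s1 (0.53, adjusted p = 0.00303) is a subunit of mTORC1. The others were Larp4b (0.30) and Gsk3b (0.33). In labelled females Larp4b (0.25) and Eif4ebp2 (0.52) rose, and neither Larp1 nor Akt1s1 was called. In male controls Akt1s1 was lower with the wheel (-0.40, adjusted p = 0.0398).

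Members were also counted by the pyrimidine run at their starts. In control females 15 of 30 members with a run fell and 13 of 28 without, with medians of -0.28 and -0.28, and in labelled females 17 of 30 and 9 of 28 fell, with medians of -0.31 and -0.23. Between locked control females and males 18 of 30 members with a run were higher in females and 24 of 28 without, with medians of 0.31 and 0.36. In the locked labelled mice 22 of 30 and 22 of 28 were higher, with medians of 0.39 and 0.37. The difference between these classes was not tested.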

How the data were processed

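The authors counted reads on each gene in gastrocnemius of 56 mice and deposited raw counts; per the labels the processing used R 4.0.3 and edgeR 3.38.4 on GRCm38, and the aligner and the counter are not given in the sources used here. The study's methods describe stranded, ribosomal RNA-depleted libraries, whereas the labels describe a 3′ end kit with single forward reads. Positions and transcript lengths came from GENCODE on GRCm38. Whether strand was used in counting is not stated.

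As in the study, counts were scaled by TMM (edgeR 4.0.16) and tested with limma (3.58.1, voom weights) in R 4.3.3, after filterByExpr, in 1 model of the 8 groups over 56 mice. P-values were adjusted by Benjamini-Hochberg over 14321 genes and called at 0.05, in 15 comparisons and 6 tests of differences. The ratio used log2 of counts plus 0.5. Log2 CPM had 2 as prior count. The p-values of limma set a difference against the spread between mice within the 8 groups. Total counts of 6639782 to 21633091 set the precision.

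Named were Rpl3, Rpl3l, the P stalk, Rpsa, paralogues ending in l, the 5 largest rises and falls called in a comparison, and the members with extreme SD or the lowest correlation; Rps7, Rpl7 and others in lists of shared calls were named after their values were seen. The members and lists were chosen with earlier results of these data known. Alternatives were DESeq2 1.42.0, edgeR's quasi-likelihood test, 3 other scalings, no filter, fits of only the groups compared, a replicate block, and each mouse left out; marker covariates and the omission of 2 running male controls were added after the data were seen. The limma test of the wheel in control females was tried on simulated counts. It recovered 36.1% of 97 genes changed by 0.5 on the log2 scale and 68.7% of 99 changed by 1. Of 107 genes called, 4 had not been changed. Changes of 0.5 or less can thus go uncalled. Reads of 46 pseudogene rows, 0.415% of the members' counts, could be shared with 35 members. A few genes that this rule names are not reported here.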

Additional observations from a re-analysis of the deposited data

Results flagged for a closer look

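The response to the running wheel differed between the sexes, by the test of the difference itself, for 40 members in controls and for 20 in mice labelled HuRm-/-, a count that ran from 13 to 30 with each mouse left out in turn and was 9 in a fit of only the groups compared. In controls the largest differences, female minus male response on the log2 scale, were -0.87 for Rpl34, -0.77 for Rpl21, -0.72 for Rps7, -0.70 for Rps15a and -0.69 for Rpl36a. In labelled mice they were -0.60 for Rpl36a, -0.59 for Rps15a, -0.59 for Rpl3, -0.57 for Rpl26 and -0.56 for Rpl13.

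In 5 of 112 sets of 7 mice 1 mouse lay far from the others by Dixon's criterion (a gap of over 0.568 of the range), where chance gives about 1 in 20. The ratio of Rpl3l to Rpl3 was 13.2 in locked labelled male 8, and the next mouse was at 9.18. Rpl3l was at 338 CPM in locked labelled female 34, with the next at 288. Rps27l was at 123 CPM in locked male control 16, with the next at 111. Rpl35 was at 102 CPM in running female control 1, below the next at 120, and at 113 CPM in locked labelled female 13, below the next at 154.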

How the results depend on the processing

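Counts of members called are given here. Library totals gave 8 for the averaged wheel, 1 and 1 for the genotype in locked and running males, and 12 for sex in running labelled mice, with mean log2 CPM of 6.65 in locked male controls and 6.89 in running labelled females. DESeq2 gave 2 for the genotype in locked males and 2 for the difference of the wheel response between genotypes in females. Fits of only the groups compared gave 0 and 1 for the genotype in locked females and running males, 4 for sex in running labelled mice and 9 for the difference between the sexes in the wheel response of labelled mice. Adipocyte markers as a covariate gave 18 for the wheel in control females, and 32, 36 and 2 for sex averaged, in locked controls and in running labelled mice. Fibroblast markers gave 0 and 6 for the wheel in control males and females, 20, 9, 22 and 2 for sex averaged, in locked controls, locked labelled and running labelled mice, and 1 and 3 for the difference between the sexes in controls and labelled mice. Leukocyte markers gave 2 and 13 for the wheel in control males and females, 26 for sex in locked controls, and 5 and 6 for those differences. Erythroid markers gave 17 for the wheel in control females, 37, 27 and 2 for sex averaged, in locked controls and in running labelled mice, and 17 for the difference in controls. Without male controls 10 and 13 the counts were 0 for the wheel, 6 for the averaged genotype, 0 for the genotype in running males and 3 for sex in running controls. The cause of these changes was not tested. Without the 10 genes with the most counts, the members' mean share was 2.17%, 2.37%, 2.15% and 2.24% in males (locked and running controls, locked and running labelled mice) and 2.86%, 2.39%, 2.95% and 2.47% in females.

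With each mouse left out in turn, the counts ran from 13 (without locked labelled female 14) to 30 (without locked labelled female 13) for the difference between the sexes in labelled mice, from 2 (without running male control 10) to 16 for the wheel in male controls, from 0 to 2 and 0 to 1 for the genotype in locked females and males, from 0 (without running male control 10) to 14 for the genotype in running males, from 6 (without running male control 10) to 12 for sex in running controls and from 3 (without running labelled female 2) to 8 for sex in running labelled mice. The log2 ratio of Rpl3l to Rpl3 ran from -0.45 to -0.26 for the wheel in labelled males, from -0.39 to -0.26 for the genotype in running females and from -0.30 to -0.14 for sex in running labelled mice. Of 1834 such values of named members 1729 kept their call, 105 lost it and none changed sign.

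Mouse numbers recur between groups, but of 12 pairs 5 had deviations that correlated over 0.1 (r from -0.20 to 0.18), so the numbers were not taken to pair mice. With mouse number as a replicate block (correlation 0.02) the counts were 39 and 39 for the wheel in control and labelled females, 58 and 61 for sex in locked mice and 40 and 20 for the differences, and no call of a named member was lost. The ratio over same-numbered locked controls alone, as a replicate block of 3 pairs, differed between the sexes by -0.68 (exact permutation p = 0.25, the smallest that 3 pairs can give). Members with few counts, Rps4l and Rpl24 first, are limited by depth.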
